A study of Mus musculus with 24 samples.

Results

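The 6 libraries described here are the livers of hCAR-TG mice given corn oil at postnatal day 5 (3 libraries) and at postnatal day 60 (3 libraries), 6 of the 24 libraries of the series. They were chosen by their sample titles, with no measured value, and the comparison throughout is day 60 minus day 5. hCAR-TG mice are C57BL/6 mice into which the human constitutive androstane receptor (CAR) was knocked in, and corn oil is the vehicle of the study's CAR activators. The whole series holds 8 groups of 3 liver libraries: hCAR-TG mice given corn oil or CITCO, an activator of human CAR, and wild type (WT) C57BL/6 mice given corn oil or TCPOBOP, an activator of mouse CAR, each at day 5 and at day 60. The WT corn oil libraries serve below as the second age comparison, and the CITCO libraries as another; neither shares a library with the hCAR-TG corn oil comparison. Nothing in the labels tells if a library is a single animal or a pool. The p-values therefore measure only the spread between libraries of a group, pooled over the 8 groups of the series. That spread may be technical.

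The newborn liver is still a blood-forming organ and its hepatocytes still divide. Over the following weeks blood cell precursors leave for the bone marrow, hepatocytes leave the cell cycle, fetal plasma proteins such as alpha-fetoprotein give way to adult ones, and the drug-metabolising enzymes and transporters reach adult levels. From puberty on, the pulse pattern of growth hormone sets male and female programmes of liver genes. CAR is a nuclear receptor of hepatocytes that drives Cyp2b, Cyp2c and Cyp3a enzymes, transferases and transporters when activated by drugs and other foreign compounds.

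Values are FPKM, fragments scaled to transcript length and to the library's mapped fragments, as the authors deposited them, so levels are per transcript length. The number of reads behind them is unknown. Changes are differences of log2(FPKM + 1), a scale that understates the change of genes near 0 FPKM, and each gene's change was tested with limma over all 24 libraries, with p-values adjusted over the 12282 genes that reached 1 FPKM in at least 3 libraries. A gene is called at an adjusted p under 0.05. Summed FPKM per library of the series lay between 451546 and 502499. Albumin (Alb) was the liver check: it stood at 46640, 47850 and 46040 FPKM at day 5 and at 32380, 34740 and 28750 FPKM at day 60. Xist was at most 0.012 FPKM in the 6 libraries and the Y-linked Ddx3y was between 3.28 and 11.5 FPKM, the pattern of male tissue.

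Day 5 replicate 3 stood apart. Its deviation from its group's mean over all tested genes was 0.26 log2 units, against 0.0976 to 0.18 in the rest of the series. Its Ddx3y level was 3.28 FPKM, against 10.7 and 10.9 in the other day 5 libraries, and its Eif2s3y level was 6.63 FPKM, against 16.6 and 14.2. The intestinal list, 20 genes of gut epithelium and Paneth cells, summed to 319 FPKM in it, against 174 and 217 in the other day 5 libraries and 70.6 to 83.3 at day 60. In WT corn oil libraries the list summed to 196, 189 and 143 FPKM at day 5 and to 91.0, 110.5 and 99.4 FPKM at day 60. Without hCAR-TG day 5 replicate 3, 2281 genes were called by at least 2-fold in place of 2264, and 2124 of the 2264 kept their call and direction. The suffix of the read file names, whose meaning the labels do not give, was 2 in all day 60 libraries and 4, 4 and 5 at day 5, so whatever it stands for cannot be told apart from age.

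Nr1i3, the gene of CAR, checks the genotype. It measured 18.7, 20.4 and 27.7 FPKM at day 5 and 6.95, 9.24 and 9.93 FPKM at day 60, so that it fell by 1.25 ± 0.18 (SE) on the log2 scale with a limma adjusted p of 3.54e-06. All day 60 libraries lay below all day 5 libraries. In WT liver, Nr1i3 had means of 58.0 FPKM at day 5 and 68.2 FPKM at day 60 and every hCAR-TG library lay below both. How human reads were counted on the mouse genome is not given in the sources used here, so these values are no measure of the receptor's amount. The deposited locus of Nr1i3 is chr1:171213970-171218845 in mm10.

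Of the 12282 tested genes, 8788 were called between the ages in hCAR-TG liver, 71.6% of them. The call was toward higher levels at day 60 for 2979 genes (24.3%) and toward lower levels for 5809 (47.3%). By at least 2-fold, 2264 genes were called (18.4%), 630 of them higher (5.13%) and 1634 lower (13.3%). These shares are the background for every list below. The median change of all tested genes was -0.167, and scaling the libraries to a common median of ratios moved it to -0.06 and the share of higher genes among the called ones from 33.9% to 43.6%. All 3 day 60 libraries lay above all 3 day 5 libraries for 2974 of the tested genes, called or not (24.2%), and below for 5682 (46.3%).

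**Figure D1:**
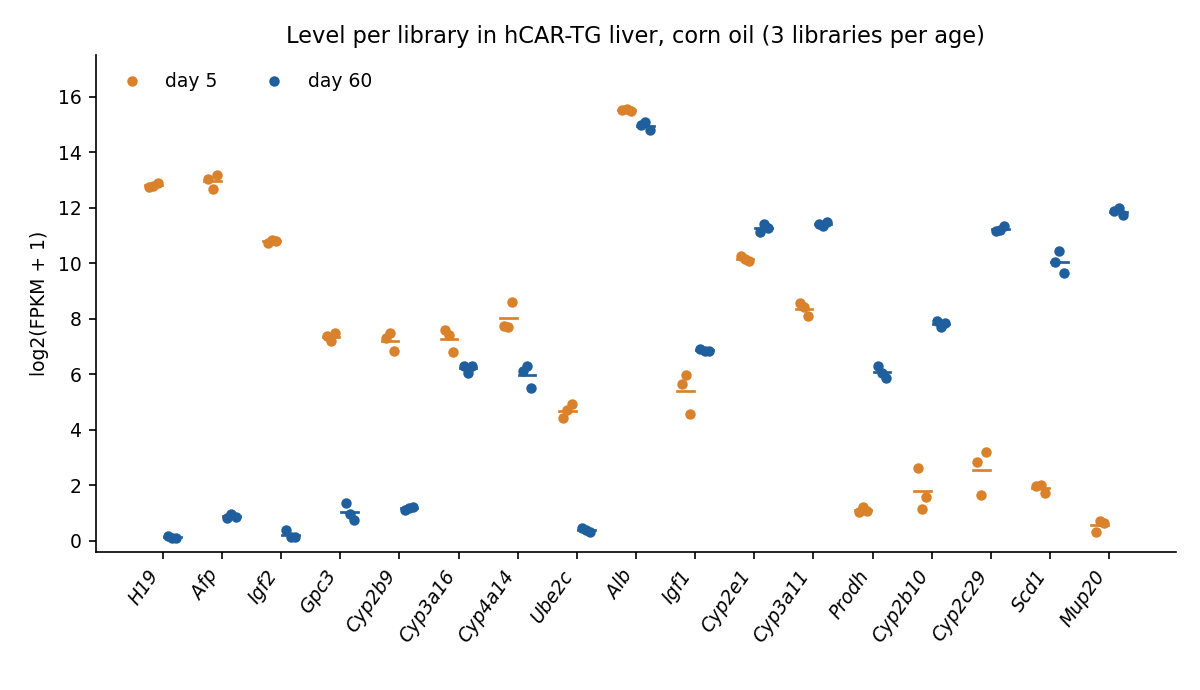
Level of 17 genes in each hCAR-TG corn oil library on the log2(FPKM + 1) axis, with a point per library and a line at the mean of each age's 3 libraries. The fetal genes H19, Afp and Igf2 drop to about 0 at day 60, Mup20 starts near 0 and Cyp2c29 and Scd1 start low at day 5, and Alb moves little beside them.

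With predicted genes left out, the 3 largest falls were those of fetal liver genes. H19, an imprinted non-coding RNA, measured 6822, 7076 and 7708 FPKM at day 5 and 0.131, 0.0761 and 0.0744 FPKM at day 60. Alpha-fetoprotein (Afp), the fetal counterpart of albumin, measured 8353, 6618 and 9405 FPKM at day 5 and 0.783, 0.935 and 0.821 FPKM at day 60. Igf2, the fetal growth factor whose gene lies beside H19, measured 1687, 1838 and 1801 FPKM at day 5 and 0.318, 0.104 and 0.0961 FPKM at day 60. All 3 genes were abundant in every newborn library and below 1 FPKM in every adult library. On the log2(FPKM + 1) scale H19 fell by 12.68 ± 0.13, Afp fell by 12.09 ± 0.14 and Igf2 fell by 10.57 ± 0.09, with limma adjusted p-values of 2.9e-24, 2.59e-23 and 2.78e-26. Their deposited mm10 loci are chr7:142575530-142578146 for H19, chr7:142650768-142661035 for Igf2 and chr5:90490714-90508907 for Afp.

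The rest of the fetal list moved the same way. Of its 22 genes of fetal hepatocytes and imprinted growth control, 18 were tested and all 18 fell by at least 2-fold, with a median of -3.85. Gpc3, a cell surface proteoglycan of fetal hepatocytes, went from 166, 147 and 177 FPKM to 1.55, 0.964 and 0.697 FPKM. Mest fell from a mean of 46.0 to 0.695 FPKM and Peg3 from 38.3 to 1.47 FPKM, both imprinted genes, and Igf2bp3, a fetal RNA-binding protein, fell from 11.5 to 0.212 FPKM. The list summed to between 36530 and 46530 FPKM in the day 5 libraries and to between 3596 and 4122 FPKM in the day 60 libraries. Zbtb20 and Zhx2, repressors of Afp in adult liver, both rose: Zbtb20 from 0.394, 0.509 and 0.332 FPKM to 1.45, 2.03 and 1.58 FPKM, and Zhx2 from 1.68, 1.66 and 1.46 FPKM to 4.30, 4.07 and 4.10 FPKM. On the log2(FPKM + 1) scale the changes were 0.925 and 0.989, under the 2-fold limit. Zfhx3, the other listed repressor, was too low to be tested. It measured 0.578, 0.672 and 0.394 FPKM at day 5 and 0.806, 0.773 and 0.859 FPKM at day 60. Alb itself fell by 0.56 ± 0.11 (adjusted p = 8.08e-05, limma), a change that was small beside that of Afp.

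**Figure D2:**
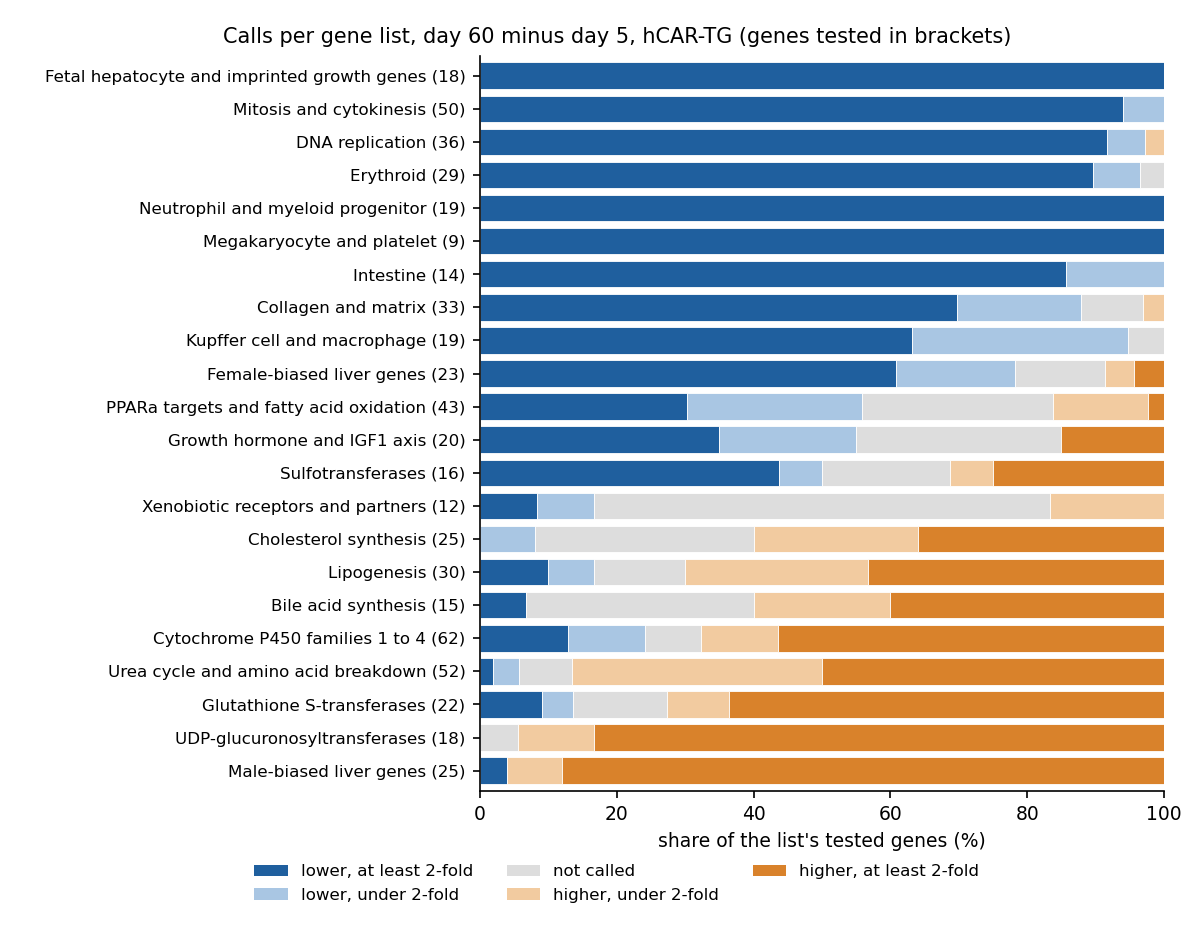
Share of each list's tested genes by call and size of the day 60 minus day 5 change in hCAR-TG liver, for 22 lists with the number of tested genes in brackets. Fetal, cell cycle and blood cell lists are almost wholly lower, and the glucuronosyltransferase and male-biased lists almost wholly higher.

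Cytochrome P450 enzymes of families 1 to 4, the oxidases of drugs, steroids and fatty acids, rose as a group but not uniformly. Of 73 listed genes 62 were tested, of which 42 rose and 15 fell, 35 and 8 of them by at least 2-fold, and the median change was 1.10. The summed level rose from 4842, 4534 and 4961 FPKM to 14320, 14660 and 15180 FPKM. Cyp2c29, a steroid and drug hydroxylase and CAR target, rose the most: it measured 6.19, 2.13 and 8.28 FPKM at day 5 and 2276, 2379 and 2614 FPKM at day 60, a change of 8.67 ± 0.39 (adjusted p = 6.95e-13, limma). Its locus is chr19:39287085-39330713. Cyp4a12a, a male-biased fatty acid hydroxylase, was under 0.1 FPKM in every day 5 library and measured 99.9, 107 and 92.9 FPKM at day 60.

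Cyp2b10 is the gene by which CAR activity is usually read. It measured 5.23, 1.22 and 1.98 FPKM at day 5 and 241, 208 and 227 FPKM at day 60 without any activator, a change of 6.03 ± 0.26 with a limma adjusted p of 1.04e-13. The groups did not overlap, and the locus is chr7:25897658-25926624. Its neighbours in the same family went the other way: Cyp2b9 fell from 157, 178 and 113 FPKM to 1.19, 1.25 and 1.36 FPKM, and Cyp2b13 from a mean of 16.1 to 6.58 FPKM. Cyp1a2, which metabolises caffeine and arylamines, rose from a mean of 59.9 to 403 FPKM. Cyp2e1, the ethanol-oxidising enzyme, was already at 1235, 1134 and 1093 FPKM at day 5 and rose to 2225, 2718 and 2455 FPKM. Members of the Cyp2b, Cyp2c and Cyp3a families are close in sequence, and how the authors divided reads among such copies is not given, so the value of any single member is uncertain. The same holds for the Mup, Gst, Sult2a and globin genes below.

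Within the Cyp3a family an adult and a perinatal enzyme parted. Cyp3a11, the main adult enzyme of steroid and drug oxidation, rose from 380, 345 and 271 FPKM to 2742, 2624 and 2855 FPKM, a change of 3.06 ± 0.11 (adjusted p = 2.09e-15, limma). Cyp3a16, known as a fetal and neonatal form, fell from 191, 169 and 110 FPKM to 77.6, 65.3 and 78.2 FPKM, a change of -1.04 ± 0.15 (adjusted p = 3.7e-06, limma). No day 60 library overlapped a day 5 library for either gene. Cyp3a44 fell by 0.61 on the log2 scale, and Cyp3a41a fell by 0.59, a call that was lost without day 5 replicate 1 (a change of -0.41), without day 60 replicate 2 (-0.46) and in a fit of the compared libraries alone (-0.59). The 250 bases before the start of Cyp3a11 (chr5:145879855-145880104, minus strand) and of Cyp3a16 (chr5:145469724-145469973, minus strand) are printed because genes that went opposite ways carry the same 9 letters there: CAAAGTCCA, the motif bound by the hepatocyte receptor HNF4A, is in capitals.
Cyp3a11: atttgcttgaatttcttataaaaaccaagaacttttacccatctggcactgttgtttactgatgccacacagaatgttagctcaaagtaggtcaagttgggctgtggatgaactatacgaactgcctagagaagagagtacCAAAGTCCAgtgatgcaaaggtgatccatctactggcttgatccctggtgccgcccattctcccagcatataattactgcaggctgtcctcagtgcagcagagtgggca
Cyp3a16: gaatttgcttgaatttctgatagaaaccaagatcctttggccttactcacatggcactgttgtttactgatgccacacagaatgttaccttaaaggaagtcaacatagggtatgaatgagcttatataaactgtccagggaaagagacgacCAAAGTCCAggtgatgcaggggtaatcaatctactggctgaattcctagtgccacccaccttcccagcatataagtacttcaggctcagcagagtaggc
The letters begin 109 bases before the start in Cyp3a11 and 99 bases before it in Cyp3a16. Of 73 listed P450 genes, 58 had a promoter entry in the RefSeq table of build GRCm38.p6, and 10 of the 58 (17.2%) held the motif on either strand, against 0.451% of all 27025 genes with an entry. Among the 8 holders that were tested, 3 were called higher and 5 lower at day 60. The holders were Cyp2c40, Cyp2c65, Cyp2c67, Cyp2c68, Cyp2c69, Cyp2c70, Cyp3a11, Cyp3a16, Cyp3a41a and Cyp3a41b, which are near copies within 2 families and share much of their sequence.

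**Figure D3:**
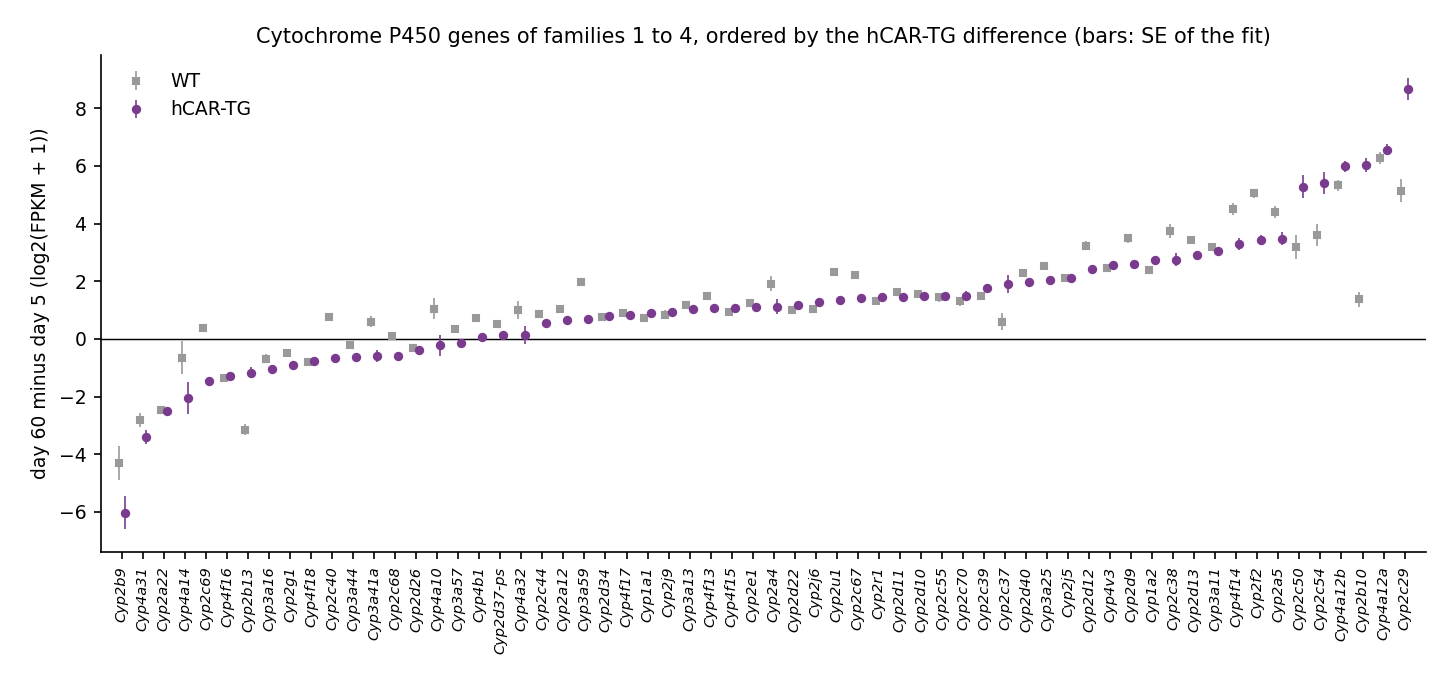
Day 60 minus day 5 change on the log2(FPKM + 1) axis of each tested P450 gene, ordered by its value in hCAR-TG (circles) and set beside WT (squares); bars are the standard errors of the fit. Cyp2b10 and Cyp2c29 lie well above their WT values, and Cyp2b13 lies above a lower WT value.

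The conjugating enzymes split by family. UDP-glucuronosyltransferases, which attach glucuronic acid, had 18 of 21 genes tested, of which 17 rose, 15 by at least 2-fold, and none fell. Ugt2b1 rose from a mean of 37.6 to 320 FPKM and Ugt1a5 from 0.144 to 13.1 FPKM, while Ugt1a1, the bilirubin-conjugating enzyme, was the member that was not called, at 138 ± 10.97 (SD) and 158 ± 6.62 FPKM; under median-of-ratios scaling it was called (change 0.335, adjusted p = 0.0103, limma). Of the glutathione S-transferases 22 were tested: 16 rose, 14 of them by at least 2-fold, and 3 fell. Gstm3 rose from 10.3, 9.03 and 9.29 FPKM to 159, 119 and 120 FPKM, and Mgst2, a microsomal member, fell from 5.43, 3.71 and 6.50 FPKM to at most 0.0547 FPKM. Sulfotransferases went both ways, with 5 of 16 tested genes higher, 4 by at least 2-fold, and 8 lower, 7 by at least 2-fold; the median change of the list was -0.11. Sult2a2, which sulfates steroids and bile acids, measured 122, 114 and 147 FPKM at day 5 and at most 0.101 FPKM at day 60, and Sult5a1 rose from a mean of 1.38 to 15.7 FPKM.

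Transporters carry drugs, bile acids and their conjugates into and out of the hepatocyte. Of 21 tested uptake transporters 16 rose and 4 fell. Of 18 tested efflux transporters 5 rose and 8 fell (44.4%, near the 47.3% of all tested genes). Slco1a1, which takes up organic anions and is a male-biased gene, went from 0.134, 0.186 and 0.103 FPKM to 77.1, 103 and 98.6 FPKM. The bile salt export pump Abcb11 rose from a mean of 70.2 to 182 FPKM, and Abcc3, which exports conjugates to blood, from 10.6 to 58.2 FPKM.

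Of the receptors that control these enzymes, the recorded Nr1i3 level fell by more than 2-fold, which is no measure of the receptor's amount in these mice. Of 12 tested xenobiotic receptors and partner proteins, 2 were called higher, neither by 2-fold, and 2 lower, of which Nr1i3 (-1.25) reached 2-fold; 8 were not called. Nr1i2, the gene of the pregnane X receptor, measured 18.2, 17.4 and 25.8 FPKM at day 5 and 23.2, 23.6 and 21.3 FPKM at day 60, with overlapping groups (change 0.16 ± 0.11, adjusted p = 0.188, limma). It was called higher under median-of-ratios scaling (0.291, adjusted p = 0.0255, limma) and without day 5 replicate 3 (0.335, adjusted p = 0.00209, limma). Rxra, the partner of both receptors, rose from a mean of 54.96 to 70.7 FPKM, and Ahr, the dioxin receptor, was not called at 11.7, 11.8 and 4.77 FPKM against 7.74, 11.3 and 9.80 FPKM. Ppara, the receptor of fatty acids, fell from 50.4, 47.7 and 53.2 FPKM to 18.4, 28.1 and 26.7 FPKM, a change of -1.04. Hnf4a rose from a mean of 80.2 to 105 FPKM.

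Genes of male adult liver appeared and those of female liver largely went. Of 25 male-biased genes tested 24 rose, 22 by at least 2-fold, with a median change of 4.62, and of 23 female-biased genes tested 18 fell, 14 by at least 2-fold, and 2 rose, with a median of -1.47. The major urinary proteins, pheromone carriers made by male liver, supplied 14 of the 15 largest rises. That ranking covers called genes whose 2 ages did not overlap, with predicted genes left out. Mup20 measured 0.254, 0.654 and 0.554 FPKM at day 5 and 3751, 4038 and 3384 FPKM at day 60, a change of 11.30 ± 0.55 (adjusted p = 4.27e-12, limma) at chr4:62050235-62054117. Hsd3b5, a male steroid dehydrogenase, went from 0.764, 0.412 and 1.18 FPKM to 117, 127 and 138 FPKM, and Elovl3, a fatty acid elongase, from at most 0.041 FPKM to 199, 246 and 234 FPKM. The member of the male list that fell was Igfbp2, an insulin-like growth factor binding protein, from a mean of 2144 to 213 FPKM. Among female-biased genes Cux2, a transcription factor of female liver, fell from 9.48, 9.70 and 10.1 FPKM to at most 0.102 FPKM, Hao2 fell from a mean of 55.1 to 0.0603 FPKM, and Cyp2a4 was higher at day 60, with means of 4.55 and 10.5 FPKM.

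The growth hormone axis was mixed. Of 20 tested genes 3 rose, all by at least 2-fold, and 11 fell (55%, against 47.3% of all tested genes). Igf1, the growth factor that the liver secretes under growth hormone, measured 49.4, 61.5 and 22.6 FPKM at day 5 and 120, 113 and 115 FPKM at day 60 (change 1.47 ± 0.23, adjusted p = 1.11e-05, limma), and the lowest day 5 value was that of replicate 3. The receptor gene Ghr showed the same picture, with 88.7, 94.4 and 49.4 FPKM at day 5 and 189, 207 and 206 FPKM at day 60. Bcl6, a repressor of female genes, rose from a mean of 0.9695 to 17.8 FPKM with a wide spread at day 60, from 8.46 to 27.2 FPKM. Igfbp1 fell from 799, 610 and 1460 FPKM to 37.1, 58.4 and 69.9 FPKM, and Socs2, a feedback inhibitor of the receptor, fell from a mean of 25.9 to 5.801 FPKM.

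Bile acid synthesis was represented by 15 tested genes, of which 9 rose and 1 fell. Cyp7a1, the rate-limiting enzyme of the classical route, was not called: it measured 11.5, 11.7 and 2.62 FPKM at day 5 and 8.12, 8.97 and 4.74 FPKM at day 60 (change -0.05 ± 0.51, adjusted p = 0.941, limma). The spread within each age was wider than the difference between them. Genes of the alternative route did rise, Cyp27a1 from 16.1, 14.2 and 19.4 FPKM to 225, 241 and 238 FPKM and Cyp7b1 from a mean of 0.924 to 70.9 FPKM. Baat, which joins bile acids to taurine, rose from a mean of 14.99 to 115 FPKM.

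Nitrogen metabolism rose broadly. Of 52 tested genes of the urea cycle and amino acid breakdown, 45 rose and 3 fell, and 26 rose by at least 2-fold. Prodh, proline dehydrogenase, went from 1.08, 1.35 and 1.13 FPKM to 78.2, 64.9 and 58.1 FPKM, the largest rise of the list at 4.95 ± 0.10. Among the enzymes of the cycle itself Ass1 rose by 3.25, Arg1 by 2.16, Cps1 by 1.78 and Otc by 0.93 on the log2 scale. Arg1 had nearly the same level in each day 5 library, 137.9, 137.8 and 137.7 FPKM, and 650, 636 and 578 FPKM at day 60. Prodh2, hydroxyproline dehydrogenase, fell from a mean of 158 to 76.6 FPKM.

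Carbohydrate genes went both ways, with 10 of 36 tested genes higher and 18 lower (50%, near the 47.3% of all tested genes). Pkm and Ldha, enzymes of glycolysis and lactate formation in fetal and dividing cells, fell from means of 42.0 to 7.89 FPKM and of 774 to 293 FPKM. Pck1 and G6pc, the enzymes of glucose production, were not called, with means of 480 and 405 FPKM for Pck1 and 204 and 191 FPKM for G6pc. Without day 60 replicate 2, Pck1 was called lower (-0.49, adjusted p = 0.0147, limma).

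Of 43 tested PPARa targets and fatty acid oxidation genes, 24 fell (55.8%, against 47.3% of all tested genes), 13 of them by at least 2-fold, and 7 rose. The median change of the list was -0.3, against -0.17 over all tested genes. Its summed level was 8201, 8028 and 9117 FPKM at day 5 and 8490, 9446 and 9234 FPKM at day 60, with overlapping groups. Cpt1a, the gate of mitochondrial oxidation, fell from 129, 125 and 149 FPKM to 41.4, 52.9 and 52.5 FPKM, and the fasting hormone gene Fgf21 from 2.998, 5.67 and 13.7 FPKM to at most 0.172 FPKM. Cyp4a14, a marker of PPARa activity, fell from 211, 210 and 390 FPKM to 68.0, 78.5 and 44.5 FPKM. Of 30 tested lipogenesis genes 21 rose, 13 by at least 2-fold, and 5 fell. Scd1, the desaturase that makes oleate, measured 2.91, 3.08 and 2.31 FPKM at day 5 and 1067, 1385 and 804 FPKM at day 60, a change of 8.14 ± 0.21 (adjusted p = 5.18e-17, limma) at chr19:44394450-44407709. Thrsp rose from a mean of 0.304 to 270 FPKM and Fasn, fatty acid synthase, from 11.8 to 53.1 FPKM. Cholesterol synthesis had 15 of 25 tested genes higher and 2 lower. Insig1, a sterol-regulated brake on the pathway, rose from a mean of 29.8 to 149 FPKM.

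Of 20 tested genes of iron handling 9 rose and 11 fell (55%), and of 22 metallothionein and antioxidant genes 11 rose and 10 fell (45.5%). Over all tested genes 47.3% fell. Hamp, the iron hormone hepcidin, measured 277, 23.7 and 6.28 FPKM at day 5 and 946, 1439 and 932 FPKM at day 60 (change 4.88 ± 0.86, adjusted p = 7.62e-05, limma). Its day 5 libraries differed widely and still lay below every adult library. Hmox1, which breaks down haem, fell from 133, 107 and 88.6 FPKM to 7.64, 10.9 and 10.8 FPKM. The metallothionein Mt1 fell from 526, 586 and 1171 FPKM to 55.7, 56.0 and 68.5 FPKM.

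Plasma protein genes went both ways, as did all tested genes, of which 47.3% fell. Of 44 tested acute phase and carrier genes 18 rose and 21 fell (47.7%), and of 28 complement genes 12 rose and 11 fell (39.3%). Serpina3k, a protease inhibitor of mouse plasma, rose from 66.0, 50.4 and 76.3 FPKM to 7905, 7223 and 6740 FPKM, and the complement gene C9 from 15.4, 26.0 and 9.10 FPKM to 258, 262 and 263 FPKM. Saa1, an acute phase protein, rose from 4.46, 3.77 and 4.66 FPKM to 310, 213 and 228 FPKM. Clock genes are the list in which time of day, which the labels do not give, would show. Of 19 tested 7 rose and 9 fell (47.4%, near the 47.3% of all tested genes). Dbp, an output gene with a strong daily rhythm, fell from 5.73, 3.95 and 9.23 FPKM to 0.304, 0.313 and 0.216 FPKM, Per3 fell from a mean of 5.95 to 0.252 FPKM and Npas2 rose from 0.311 to 3.32 FPKM. Whether livers of the 2 ages were collected at the same hour cannot be told from these files.

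Cell division genes fell together. Of 50 listed and tested genes of mitosis and cytokinesis all 50 fell, 47 by at least 2-fold, and of 36 tested DNA replication genes 35 fell, 33 by at least 2-fold. The summed mitosis level was 364, 365 and 368 FPKM at day 5 and 29.9, 33.9 and 34.7 FPKM at day 60. Ube2c, the ubiquitin carrier of the anaphase-promoting complex, went from 20.7, 25.1 and 29.2 FPKM to 0.396, 0.302 and 0.263 FPKM, the largest fall of the list at -4.29 ± 0.15 (adjusted p = 1.26e-15, limma). Ccnb2, a mitotic cyclin, went from 14.5, 13.2 and 18.4 FPKM to 0.121, 0.268 and 0.115 FPKM, and Cdc20, which activates the same complex, from 12.2, 12.3 and 18.3 FPKM to 0.223, 0.157 and 0.320 FPKM. Every day 60 library was far below every day 5 library for these genes. Mcm6, a subunit of the replicative helicase, fell from 36.8, 41.5 and 20.0 FPKM to 0.938, 0.955 and 0.998 FPKM, and Mcm10 was the replication gene that rose, from a mean of 3.79 to 7.07 FPKM. Mki67, the proliferation marker, measured 15.6, 15.8 and 5.49 FPKM at day 5, lowest in replicate 3, and at most 0.171 FPKM at day 60. Cdkn1c, an imprinted inhibitor of the cell cycle, also fell, from a mean of 36.3 to 0.485 FPKM.

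The promoters of 4 of these genes are shown because the genes moved together and hold letters that match elements known from cell cycle genes. The letters are those of the CCAAT box (CCAAT) and the cell cycle homology region (TTTGAA) for Ube2c, Ccnb2 and Cdc20. For Mcm6 they are those of the CCAAT box and an E2F site (TTTCGCGC). Matches this short do not show a working element, and their part in the fall was not tested. Capitals mark matches on either strand in the 250 bases before the start, from RefSeq on GRCm38.p6, at chr2:164769679-164769928 (plus strand) for Ube2c, chr9:70421555-70421804 (minus) for Ccnb2, chr4:118437344-118437593 (minus) for Cdc20 and chr1:128359706-128359955 (minus) for Mcm6.
Ube2c: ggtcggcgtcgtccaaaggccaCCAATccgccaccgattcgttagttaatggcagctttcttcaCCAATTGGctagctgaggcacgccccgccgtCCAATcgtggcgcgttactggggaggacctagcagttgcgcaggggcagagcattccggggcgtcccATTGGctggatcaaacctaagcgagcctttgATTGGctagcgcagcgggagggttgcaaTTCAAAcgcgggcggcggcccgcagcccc
Ccnb2: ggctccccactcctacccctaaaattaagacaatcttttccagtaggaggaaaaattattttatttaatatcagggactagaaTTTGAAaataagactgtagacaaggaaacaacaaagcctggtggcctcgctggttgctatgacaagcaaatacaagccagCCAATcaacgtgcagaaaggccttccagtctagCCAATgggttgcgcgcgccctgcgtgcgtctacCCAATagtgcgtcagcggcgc
Cdc20: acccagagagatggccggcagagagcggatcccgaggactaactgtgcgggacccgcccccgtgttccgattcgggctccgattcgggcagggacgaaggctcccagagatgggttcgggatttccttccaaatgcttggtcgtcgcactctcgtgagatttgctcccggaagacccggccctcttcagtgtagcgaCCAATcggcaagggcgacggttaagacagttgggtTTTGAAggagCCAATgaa
Mcm6: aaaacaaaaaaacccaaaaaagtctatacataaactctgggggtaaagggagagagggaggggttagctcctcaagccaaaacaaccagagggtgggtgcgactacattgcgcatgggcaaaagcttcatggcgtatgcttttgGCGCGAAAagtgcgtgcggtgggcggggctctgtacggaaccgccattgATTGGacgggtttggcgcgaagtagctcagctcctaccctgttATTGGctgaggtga
Ube2c holds 6 CCAAT matches, of which a pair on opposite strands overlap, Ccnb2 holds 3, and Cdc20 and Mcm6 hold 2 each. Of the 50 mitosis genes 41 had a promoter entry: 29 of the 41 (70.7%) held CCAAT, against 37.5% of all 27025 genes, 12 (29.3%) held TTTGAA, against 18.3%, and 10 held both, against 7.34%. TTTGAA was also held outside the mitosis list: 5 of 30 replication promoters (16.7%) held it, as did 8 of 19 promoters (42.1%) of the UDP-glucuronosyltransferases, which rose, 5 of 15 (33.3%) of the sulfotransferases and 19 of 58 (32.8%) of the P450 genes. Of the replication genes 30 had an entry, of which 19 (63.3%) held CCAAT and 6 (20%) held TTTCGCGC, against 0.3% of all genes.

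Marker genes of blood cells and their precursors also fell between the ages. In bulk liver, fewer cells of a type and less RNA per cell cannot be told apart. Of 29 tested erythroid genes 28 fell, 26 by at least 2-fold, and the summed level went from 14100, 17110 and 17440 FPKM to 1437, 1887 and 1684 FPKM. Slc4a1, the anion exchanger of red cells, measured 38.5, 45.4 and 49.1 FPKM at day 5 and at most 0.042 FPKM at day 60. The globin gene Hba-a1 kept 622, 797 and 706 FPKM at day 60 after 6522, 8568 and 8417 FPKM at day 5. Alas2, the haem enzyme of red cell precursors, had means of 63.0 and 46.1 FPKM; its change of -0.44 was no longer called under median-of-ratios scaling (-0.31) and without day 5 replicate 2 (-0.39) or day 60 replicate 1 (-0.42).

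White cell and platelet genes followed. All 19 tested neutrophil and myeloid progenitor genes fell by at least 2-fold, as did all 9 tested megakaryocyte genes; 18 of 19 Kupffer cell genes and all 15 lymphocyte genes fell as well. Ngp, a neutrophil granule protein, went from 116, 134 and 168 FPKM to at most 0.113 FPKM, and S100a8, a calcium-binding protein of neutrophils, from 458, 473 and 563 FPKM to 10.03, 8.64 and 10.5 FPKM. Pf4, platelet factor 4, fell from a mean of 30.4 to 1.52 FPKM. Of the macrophage genes Marco, a scavenger receptor, measured 284, 251 and 70.7 FPKM at day 5, lowest in replicate 3, and 3.03 to 4.66 FPKM at day 60, whereas Clec4f, the Kupffer cell lectin, fell only from a mean of 60.6 to 41.9 FPKM. Among the resident cells of the liver 17 of 20 sinusoidal endothelial genes and 13 of 18 stellate cell genes fell, and 29 of 33 genes of collagen and matrix. Eln, elastin, measured 36.4, 47.6 and 43.6 FPKM at day 5 and 4.496, 1.09 and 1.16 FPKM at day 60, and Col1a1 measured 10.6, 2.29 and 1.72 FPKM at day 60, so day 60 replicate 1 was the highest adult library for both. Of 17 general hepatocyte genes 8 rose and 7 fell (41.2%, against 47.3% of all tested genes). The part of a changed cell mixture in the other results was not tested.

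**Figure D4:**
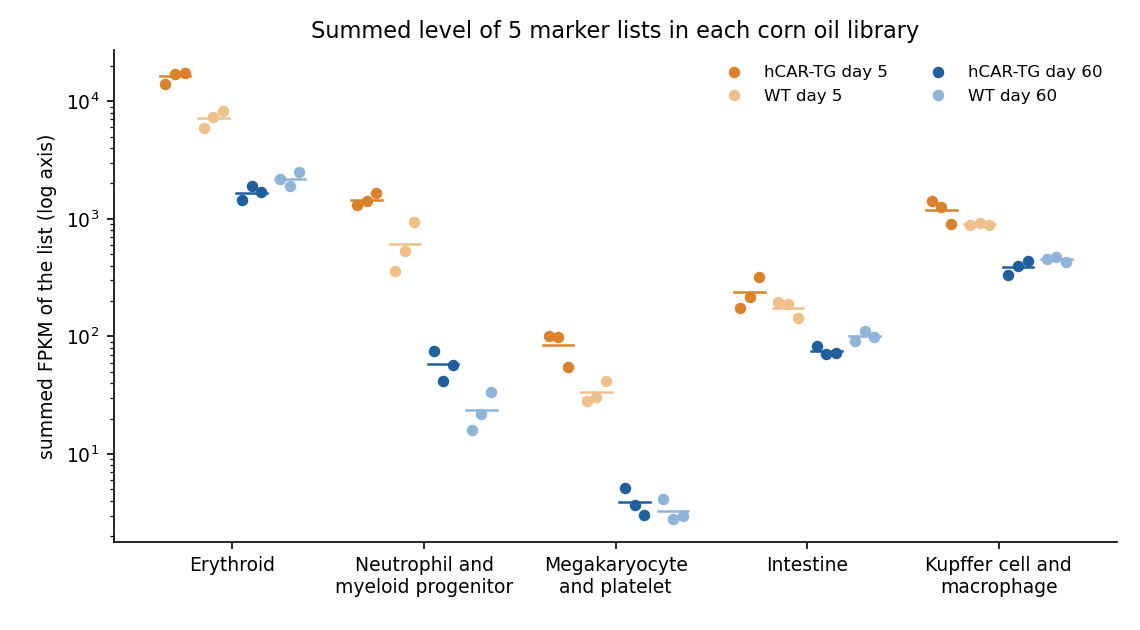
Summed FPKM of 5 marker lists in each corn oil library on a log axis, with a point per library and a line at the mean of 3 libraries. The hCAR-TG day 5 libraries lie above the WT day 5 libraries for the erythroid, neutrophil and megakaryocyte lists, and the highest intestinal sum is that of hCAR-TG day 5 replicate 3.

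The same age comparison in WT liver called 1995 genes by at least 2-fold (16.2%), 601 higher (4.89%) and 1394 lower (11.3%). Of the 630 genes higher in hCAR-TG 501 were also called higher in WT, 79.5% of the hCAR-TG genes and 83.4% of the WT genes, and of the 1634 lower genes 1207 were also lower in WT, 73.9% and 86.6%. Across the 12282 genes the changes in the 2 genotypes had a Pearson r of 0.944 and a Spearman rho of 0.928, as a description over genes, which are not independent. The test of the difference itself, hCAR-TG change minus WT change, called 852 genes (6.94%), 258 with a higher change in hCAR-TG (2.1%) and 594 with a lower one (4.84%), and median-of-ratios scaling moved the share of higher among them from 30.3% to 42.6%. Among the 2264 genes called by at least 2-fold in hCAR-TG, 402 (17.8%) had a called difference.

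**Figure D5:**
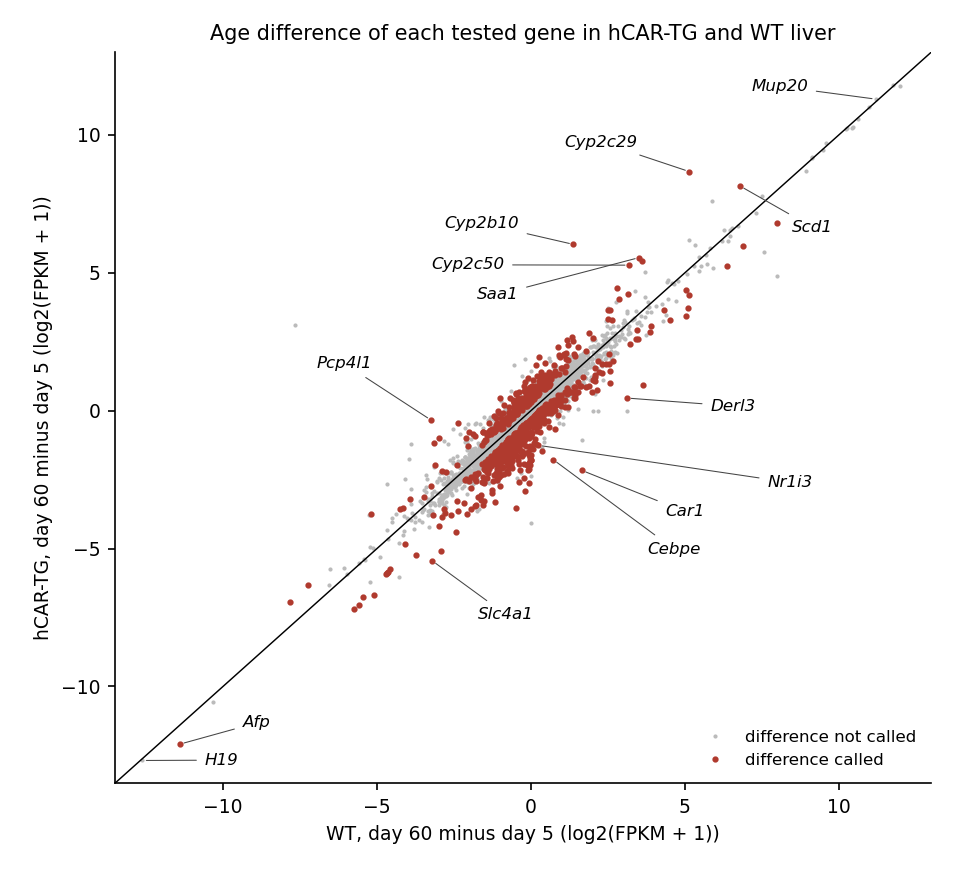
Day 60 minus day 5 change of each of the 12282 tested genes in hCAR-TG (vertical axis) against WT (horizontal axis), both in log2(FPKM + 1), with genes whose difference was called in red and a line of equality. Most genes lie along the line, Cyp2b10 and Cyp2c29 stand above it, and Car1, Cebpe and Derl3 below it.

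The P450 genes Cyp2b10, Cyp2c29 and Cyp2c50 were among the 6 largest differences toward a higher change in hCAR-TG, with predicted genes left out. Most P450 differences went the other way. Cyp2b10 rose from a mean of 4.26 to 12.9 FPKM in WT, a change of 1.38, so its rise in hCAR-TG was larger by 4.65 (adjusted p = 2.01e-07, limma). Cyp2c29 rose from 29.9 to 946 FPKM in WT and its difference was 3.53 (adjusted p = 0.000592, limma). Cyp2c50, of the same enzyme subfamily, differed by 2.09 and Gstm3 by 1.09, while Cyp3a11 (difference -0.14, adjusted p = 0.695) and Cyp2e1 (difference -0.17, adjusted p = 0.613) did not pass the test. Cyp2b13 fell from a mean of 15.7 to 1.003 FPKM in WT and less in hCAR-TG, with a difference of 1.98. Of 62 tested P450 genes 20 had a called difference, 15 of them toward a lower change in hCAR-TG: among these Cyp2c69 fell in hCAR-TG and had a WT change of 0.36, Cyp2c40 fell by 0.67 against a WT change of 0.77, and Cyp2f2 rose by 3.43 against 5.05 in WT.

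Blood cell genes led the differences the other way. Of 29 tested erythroid genes 27 had a called difference, as did 12 of 19 neutrophil genes and 8 of 9 megakaryocyte genes, against 6.94% of all tested genes. These lists were chosen with earlier results of these data known. Car1 and Slc4a1 of the erythroid list and Cebpe of the neutrophil list rank among the 6 largest differences toward a lower change. The counts are therefore no independent support. The erythroid sum at day 5 was 5874, 7386 and 8251 FPKM in WT, below every hCAR-TG day 5 library, and at day 60 it was 1897 to 2508 FPKM in WT. The neutrophil sum fell in both genotypes and was higher in hCAR-TG at both ages. In hCAR-TG it went from 1301, 1404 and 1648 FPKM to 75.2, 42.0 and 57.0 FPKM. In WT it went from 363, 531 and 931 FPKM to 16.1, 21.9 and 33.4 FPKM. Slc4a1 had a day 5 mean of 9.47 FPKM in WT and a difference of -2.25 (adjusted p = 6.72e-05, limma). Car1, the carbonic anhydrase of red cells, measured 14.3, 25.5 and 40.6 FPKM at day 5 in hCAR-TG and 5.03, 4.28 and 4.87 FPKM at day 60; in WT it went from a mean of 1.56 up to 6.69 FPKM, so its difference was -3.82 (adjusted p = 2.67e-06, limma). Cebpe, a factor of granulocyte maturation, differed by -2.51. In a fit of the 12 compared libraries alone the erythroid count was 24, the neutrophil count 3 and the megakaryocyte count 3. With a pseudocount of 0.1 the counts were 25, 10 and 5. Among genes that reached 5 FPKM, which left fewer members of each list to test, they were 16, 6 and 2. The suffix of the read file names also differs between the genotypes at both ages. At day 5 it was 3 in the WT libraries and 4, 4 and 5 in hCAR-TG. At day 60 it was 1 in the WT libraries and 2 in hCAR-TG. Whatever it stands for cannot be told apart from genotype in any of these differences, those of the P450 genes included.

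Genes of the intestine had 9 called differences among 14 tested, against 6.94% of all tested genes. The list was chosen with earlier results of these data known. It holds Lypd8 and Defa24, which rank among the 6 largest differences toward a lower change, so the count is no independent support. Lypd8, of the colonic epithelium, measured 6.28, 10.8 and 16.4 FPKM and Defa24, a Paneth cell defensin, 3.03, 5.95 and 14.5 FPKM in the hCAR-TG day 5 libraries, highest in replicate 3, and both were listed at 0 in all 3 day 60 libraries. In WT at day 5 their means were 0.457 and 0.158 FPKM. The sum of the whole list was 196, 189 and 143 FPKM in WT at day 5, which overlaps hCAR-TG day 5 replicates 1 and 2 (174 and 217 FPKM). Without hCAR-TG day 5 replicate 3 the count of called differences was 8. Among genes reaching 5 FPKM, which left fewer members of the list to test, it was 3. The part of intestinal RNA in other results was not tested.

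Some of the largest differences lay outside the lists. Pcp4l1, a small protein of the Purkinje cell protein family, measured 15.8, 11.9 and 17.4 FPKM at day 5 and 10.5, 12.02 and 12.02 FPKM at day 60 in hCAR-TG (adjusted p = 0.0854, limma, and 0.0221 without day 5 replicate 2), and fell from a mean of 52.7 to 4.49 FPKM in WT, a difference of 2.90. Tstd1, a thiosulfate sulfurtransferase, fell by 0.97 and fell further in WT, a difference of 2.02. Derl3, of endoplasmic reticulum protein degradation, rose by 0.46 in hCAR-TG and by 3.12 in WT, a difference of -2.66 (adjusted p = 3.48e-08, limma). Saa1 and Scd1 rose more in hCAR-TG, by 2.04 and 1.35, and Ppara fell more, by 0.76.

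In hCAR-TG mice given CITCO at both ages, 2085 genes were called by at least 2-fold (17%), 602 higher (4.9%) and 1483 lower (12.1%). They included 474 of the 630 genes higher under corn oil (75.2%, and 78.7% of those under CITCO) and 1276 of the 1634 lower ones (78.1% and 86%). The changes of Afp and H19 under CITCO were -11.55 and -12.03, and that of Mup20 was 10.61. Cyp2b10 changed by 1.49 under CITCO and Cyp2c29 by 3.45, smaller than their changes under corn oil, with both ages treated; Cyp3a16 changed by 1.21, opposite in sign to its corn oil change. These differences between corn oil and CITCO were not tested here.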

How the data were processed

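Each table holds, per gene, FPKM values that the authors deposited, in the layout of Cufflinks output per the file headers. Libraries were stranded poly(A) from frozen liver per the labels' protocols, and the build was mm10 per the submitters' processing notes; the aligner, quantifier, annotation and read depth are not given in the sources used here. Entries that shared a symbol were summed (279 symbols), 5 genes with a failed estimate were left out (Ceacam1, Gm2083, Mif4gd, Mup16 and Tle1), and log2(FPKM + 1) of the 12282 genes with at least 1 FPKM in 3 of 24 libraries was fitted with limma 3.58.1 in R 4.3.3 (8 groups, 16 residual degrees of freedom, trended robust variances, Benjamini-Hochberg adjustment), after tests on simulated data. Whole reads could not be recovered: 63.4% of 73618 low values came out whole within 0.05. The 47 gene lists hold textbook members; members and lists were chosen with earlier results of these data known. Genes named are Nr1i3 and Cyp2b10, the 15 largest called rises and falls, the 6 largest differences each way, and members of each list. The rankings left out predicted genes (such as symbols of Gm and a digit or ending in Rik). They also left out rises and falls whose ages overlapped, and differences whose genotypes overlapped at both ages. From each list came up to 6 members with the largest change plus those that are the reason for the list. Cyp3a41a, Alas2, Ddx3y, Eif2s3y and a few list members were added after their values were seen. Loci are as in the tables, with starts counted from 1.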

Additional observations from a re-analysis of the deposited data

Results flagged for a closer look

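For 36 genes named above, the day 60 minus day 5 change differed between hCAR-TG and WT liver by the limma test of the difference (adjusted p under 0.05 over 12282 genes). Values are hCAR-TG change minus WT change on the log2(FPKM + 1) scale. Toward a higher change in hCAR-TG they were 4.65 for Cyp2b10, 3.53 for Cyp2c29, 2.90 for Pcp4l1, 2.09 for Cyp2c50, 2.04 for Saa1, 2.02 for Tstd1 and 1.98 for Cyp2b13. Smaller differences of that sign were 1.35 for Scd1, 1.26 for Npas2, 1.09 for Gstm3, 0.87 for Sult2a2 and 0.36 for Arg1. Toward a lower change in hCAR-TG, the enzymes were Cyp2c69 at -1.83, Cyp2f2 at -1.62, Cyp2c40 at -1.44, Cyp3a41a at -1.19, Hmox1 at -1.16, Baat at -1.0, Cyp2c67 at -0.79, Mgst2 at -0.78 and Cyp2c68 at -0.70. The receptors and regulators were Nr1i3 at -1.49, Ppara at -0.76 and Hnf4a at -0.38. Plasma and fetal proteins were Serpina3k at -1.18 and Afp at -0.69, and Derl3 was at -2.66. Red cell genes were Car1 at -3.82, Slc4a1 at -2.25, Hba-a1 at -1.66 and Alas2 at -0.87. Myeloid genes were Cebpe at -2.51, Marco at -2.18 and Ngp at -1.44. The intestinal genes were Lypd8 at -3.05 and Defa24 at -2.73, both highest in hCAR-TG day 5 replicate 3. The Nr1i3 value rests on how reads of the human transcript were counted, which is not given.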

How the results depend on the processing

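The number of genes called in hCAR-TG was 8788, and 5688 when only genes reaching 5 FPKM were tested, which leaves fewer genes to call. By at least 2-fold it was 2264, and a pseudocount of 0.1 in place of 1 gave 3351. The same pseudocount raised the 2-fold count to 3243 in WT and to 3231 under CITCO. The 852 differences between genotypes were 288 in a fit of the 12 compared libraries alone. That fit has fewer samples and takes its spread from those libraries only. The reason for the lower count was not tested. Leaving out each library in turn gave 8309 to 8947 called genes in hCAR-TG, 2233 to 2305 by at least 2-fold, 1961 to 2041 in WT, 2009 to 2153 under CITCO, and 601 (without WT day 5 replicate 2) to 1228 (without hCAR-TG day 5 replicate 3) differences. Same-numbered libraries of the 2 ages did not deviate together (correlations of -0.18, -0.032 and -0.039), so the numbers do not pair them; with the replicate number as a block 8765 genes were called, 2264 by at least 2-fold, with 788 differences. Of 105 named genes called in the hCAR-TG age comparison, 102 kept that call in all 13 settings in which they were tested. The others are Alas2, Cyp3a41a and Eif2s3y, and none reversed. Differences between genotypes were not followed gene by gene over these settings. Of 8 named genes that were not called, 5 were called in at least 1 setting: Ugt1a1, Nr1i2 and Ddx3y under median-of-ratios scaling, and Nr1i2, Ddx3y, Pcp4l1 and Pck1 with a library left out. Median-of-ratios scaling kept 2062 of the 2264 2-fold calls. Depth is unknown, so changes near 0 FPKM are the least certain.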
